A study of Mus musculus with 10 samples.

Results

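The genes described here are 7 adventitial fibroblast genes, Pi16, Cd34, Clec3b, Dpt, Tnxb, Dpp4 and Mfap5, which mark fibroblasts that lie in the outer coat of vessels and in loose connective tissue. They were picked by name from the 15078 genes of the table, and all 7 were found in it and passed the filter on low values. The names were chosen by looking at earlier results of these same libraries, so their levels and differences are given below as a description, with no p-value, and nothing is read from how many of them pass a threshold.

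The libraries were made from the RNA of CD51+CD200+ mouse bone cells, in 3 groups. Graft BM-MSCs (bone marrow mesenchymal stem cells, n = 4) came from the marrow of Postn-CreER;tdTomato femurs that had been placed under the skin of wild-type hosts 5 months earlier. The hosts received tamoxifen soon after surgery, an agent that turns on Tomato in donor cells that use Postn (periostin) and in their progeny, and Tomato+ cells were sorted. Postn is used by osteoblasts and other fibroblasts as well as by periosteal stem cells, so the label does not mark 1 cell type. Steady-state BM-MSCs (n = 3) and P-SSCs (periosteal skeletal stem cells, n = 3) came from the marrow and the periosteum of wild-type mice labelled as hosts at steady state with no treatment, and BM-MSC 2+4 and P-SSC 2+5 each held the combined RNA of a pair of mice. The sort left out cells with CD45, Ter119 or CD31. The labels give no age, and the study's methods state only a general range of young adult ages for its mice. The comparison asks how far marrow stromal cells that arise from the graft resemble the periosteal and the marrow cells of intact bones.

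Fibroblasts with Pi16 and Dpp4 occur in many organs and are often described as a progenitor-like state of connective tissue. The 7 products work at the cell surface or in the matrix. Cd34 is a sialomucin of the cell surface, best known from blood progenitors and endothelium. Dpp4 is a membrane protease that trims short peptides, among them the chemokine Cxcl12. Pi16 is a protein of the CAP family, which is secreted or anchored to the membrane. Clec3b (tetranectin) is a secreted lectin that binds plasminogen. Dpt (dermatopontin), Tnxb (tenascin X) and Mfap5 (a microfibril glycoprotein that binds fibrillin) belong to the extracellular matrix around collagen and elastic fibres. The periosteum, the membrane around bone, has an outer layer of such connective tissue.

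On the mouse build GRCm38, Pi16 (ENSMUSG00000024011) lies at chr17:29317680-29330593 and Tnxb (ENSMUSG00000033327) at chr17:34670535-34719815, both on the plus strand. Cd34 (ENSMUSG00000016494) lies at chr1:194938819-194961279 and Dpt (ENSMUSG00000026574) at chr1:164796644-164824266, both on the plus strand. Clec3b (ENSMUSG00000025784) lies at chr9:123150946-123157432 and Mfap5 (ENSMUSG00000030116) at chr6:122505845-122529290, both on the plus strand, and Dpp4 (ENSMUSG00000035000) at chr2:62330073-62412231 on the minus strand. All 7 are protein-coding, on 5 chromosomes, so the group is not a gene cluster. Annotated genes overlap Pi16, Cd34, Dpt, Tnxb and Dpp4 on the other strand, and the sources used here do not say whether reads were counted by strand. Among these overlapping genes, Gm16897, antisense to Cd34, was in the table, with 145, 148 and 77.6 in P-SSC 1, 2+5 and 4 and 0 in the other 7 libraries.

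The bases just before the gene starts of Cd34, Tnxb and Dpp4 are shown because these genes had no more than 1 read in any graft library, and that of Dpt because 3 graft libraries kept reads of it. The sequences are RefSeq promoter entries on GRCm38.p6, which exist for 5 of the 7 genes, and they run 5′ to 3′ along the gene up to its annotated start. The search covered the 250 bases before the RefSeq start, of which the last 2 of Cd34 and the last 19 of Dpt lie inside the GENCODE gene and are not printed. Both strands were searched for the TATA box in the form TATAAA, the box named after its letters CCAAT, the GC box in the form GGGCGG, the AP-1 site in the form TGANTCA and the TEAD site in the form CATTCC, and capitals mark the matches. The windows are chr1:194938571-194938818 (plus) for Cd34, chr17:34670285-34670534 (plus) for Tnxb, chr2:62412232-62412481 (minus) for Dpp4 and chr1:164796413-164796643 (plus) for Dpt.
Cd34: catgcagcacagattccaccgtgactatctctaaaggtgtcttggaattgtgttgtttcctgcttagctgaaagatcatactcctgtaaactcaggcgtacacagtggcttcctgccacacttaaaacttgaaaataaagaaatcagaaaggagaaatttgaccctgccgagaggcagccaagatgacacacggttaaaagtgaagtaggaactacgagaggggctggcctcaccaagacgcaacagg
Tnxb: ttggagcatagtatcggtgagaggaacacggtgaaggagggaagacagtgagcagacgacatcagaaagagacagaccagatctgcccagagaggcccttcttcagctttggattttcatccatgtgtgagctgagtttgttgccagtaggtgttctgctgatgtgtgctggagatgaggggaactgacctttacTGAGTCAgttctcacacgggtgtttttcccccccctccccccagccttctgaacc
Dpp4: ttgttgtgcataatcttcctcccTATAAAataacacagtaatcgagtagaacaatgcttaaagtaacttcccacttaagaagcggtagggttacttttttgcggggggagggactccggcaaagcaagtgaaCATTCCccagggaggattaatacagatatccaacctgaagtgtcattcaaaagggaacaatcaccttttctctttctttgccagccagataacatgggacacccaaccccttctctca
Dpt: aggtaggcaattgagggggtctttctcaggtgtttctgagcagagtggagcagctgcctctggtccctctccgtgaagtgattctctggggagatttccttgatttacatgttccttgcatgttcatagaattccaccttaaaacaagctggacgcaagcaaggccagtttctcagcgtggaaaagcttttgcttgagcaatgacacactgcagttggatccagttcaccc

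The Cd34 window held none of these letters. Tnxb had an AP-1 match 55 bases before the start, which 6.75% of 32851 promoters of the same length also have. Dpp4 had a TATA match 227 bases and a TEAD match 118 bases before its start, found in 12.4% and 12.6% of promoters. Pi16, whose window is not shown because it lies wholly inside the annotated Pi16 gene, had a CCAAT match 64 bases before the start, found in 33.8% of promoters. No GC box was found in the 5 windows, against 32.7% of promoters. The E-box CANNTG, not capitalised above, occurred 6 times in the searched bases of Dpt, 1 time each in Tnxb and Dpp4 and not in Cd34 or Pi16, against at least 1 occurrence in 66.2% of promoters. No letters searched for were shared by all 5 windows.

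The values below are normalized read counts, gene reads scaled by the size factor of each library. Libraries held 15415421 to 25223295 reads, so that 3 reads, taken as the smallest detectable amount, were 0.119 to 0.195 ppm. In graft libraries, 0.898 to 8.78% of genes with at least 100 in every other graft library were at 0, most in graft BM-MSC 2, whereas no steady-state library exceeded 0.363%, and a 0 is therefore called listed at 0. Libraries also split, in the data and not by any label, by their GC-rich genes (over 65% GC), which were high in the 4 graft libraries and P-SSC 4 (1.52 to 2.80 on the log2 scale, relative to genes with 50 to 60% GC) and low in the other 5 (-1.81 to -1.51). This split is called the library batch below, and between graft BM-MSCs and BM-MSCs it cannot be told apart from the group. P-SSCs alone hold both sides of the split, so a fit with the batch as a covariate estimates it from the P-SSC libraries. A call between graft BM-MSCs and BM-MSCs that is lost in that fit therefore does not tell batch from group. In sorted bulk RNA, fewer cells of a type and less RNA of a gene per cell cannot be told apart either.

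The 2 genes of the cell surface, Cd34 and Dpp4, were high in P-SSCs and at or near 0 in both marrow groups. Cd34 stood at 72348, 66639 and 50508 in P-SSC 1, 2+5 and 4, at 7.31, 4.22 and 4.93 in BM-MSC 1, 2+4 and 3, and was listed at 0 in all 4 graft libraries. The 3 groups did not overlap, and Cd34 was the 1 member whose graft libraries all lay below all BM-MSC libraries, a pattern that 14.7% of all 13644 genes tested showed. The BM-MSC group had 16 reads in all, and the difference between graft and BM-MSCs was -2.67 (SE 0.89), with -0.07 after quantile normalization, -1.06 with a pseudocount of 5, -5.77 with a pseudocount of 0.1, -5.63 in edgeR and -5.22 in DESeq2. With graft zeros set to 3 reads, Cd34 was at least 20907-fold higher in P-SSCs than in the graft (log2 difference -15.93, SE 0.89, graft minus P-SSC, on the log2(value + 1) scale used throughout). It was 11512-fold higher in P-SSCs than in BM-MSCs (13.26, SE 0.95).

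Dpp4 stood at 9731, 8690.2 and 6347 in P-SSC 1, 2+5 and 4 and had no reads in the 3 BM-MSC libraries or in graft BM-MSC 1, 2 and 3. The remaining graft library, graft BM-MSC 4, had a value of 0.863, which is 1 read. P-SSCs lay above every marrow library, while no difference between graft BM-MSCs and BM-MSCs was detectable at this depth. With BM-MSC zeros set to 3 reads, the mean of P-SSCs was at least 2609-fold that of BM-MSCs. Against the graft the ratio was 38263, with a 95% counting interval of 6867 to 1511298 that reflects the single read (log2 difference -12.76, SE 0.99).

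The secreted proteins Pi16 and Clec3b were again carried by P-SSCs. Pi16, the member with the highest P-SSC mean, stood at 236339, 207934 and 94956 in P-SSC 1, 2+5 and 4 and at 29.2, 60.1 and 73.0 in BM-MSC 1, 2+4 and 3. Of the graft libraries, graft BM-MSC 3 had 129.9 and the other 3 were listed at 0, so that 1 graft library lay above all BM-MSC libraries and 3 lay below. Graft and BM-MSC values therefore overlapped, with a log2 difference of -3.93 (SE 1.56) that was -5.69 without graft BM-MSC 3, -0.79 in edgeR and -0.74 in DESeq2, and both lay far below P-SSCs. The mean of P-SSCs was 5534-fold that of the graft (log2 difference -15.59, SE 1.56) and 3322-fold that of BM-MSCs (11.66, SE 1.67).

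Clec3b stood at 26025, 39364 and 22622 in P-SSC 1, 2+5 and 4. BM-MSC 2+4 had 2.11, which is 2 reads, and BM-MSC 1 and 3 were listed at 0. Graft BM-MSC 4 had 22.4, from 26 reads, and the other 3 graft libraries were listed at 0. As with Pi16, a single graft library carried all the graft reads, but it was a different library. P-SSCs exceeded the graft by 5229-fold (log2 difference -13.66, SE 1.37) and BM-MSCs by a ratio of 41727, with a 95% counting interval of 11551 to 344553 (14.25, SE 1.47). The graft and BM-MSC values overlapped (0.59, SE 1.37), and their difference turned to -0.55 without graft BM-MSC 4 and was 2.98 in DESeq2.

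Of the 3 matrix genes, Tnxb behaved like Cd34 and Dpp4, while Dpt and Mfap5 kept reads in the graft. Tnxb stood at 11238, 11195 and 10109 in P-SSC 1, 2+5 and 4, the narrowest spread of the 7 genes there (CV 5.90%). It was listed at 0 in all 4 graft libraries and in BM-MSC 1 and 3, and BM-MSC 2+4 had 1.05, which is 1 read. A difference between the marrow groups was not detectable at this depth (-0.35, SE 0.99, or 0.94 after quantile normalization). With graft zeros set to 3 reads, P-SSCs were at least 3590-fold above the graft (log2 difference -13.40, SE 0.99). Against BM-MSCs the ratio was 30857, with a 95% counting interval of 5538 to 1218774 (13.06, SE 1.06).

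Dpt stood at 25108, 31456 and 15506 in P-SSC 1, 2+5 and 4 and at 2.09, 7.38 and 4.93 in BM-MSC 1, 2+4 and 3. In the graft it stood at 130.5, 583 and 181 in graft BM-MSC 1, 3 and 4 and was listed at 0 in graft BM-MSC 2. These 3 graft libraries lay above all BM-MSC libraries and the fourth below them, so the groups overlapped (log2 difference 3.51, SE 1.77). Without graft BM-MSC 2 the difference was 5.49. All graft libraries lay below all P-SSC libraries, with means 107-fold apart (-8.56, SE 1.77).

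Mfap5 was the exception among the 7. It stood at 8948, 105, 1155 and 5869.8 in graft BM-MSC 1 to 4, at 55.4, 39.0 and 10.8 in BM-MSC 1, 2+4 and 3, and at 77583, 112571 and 44374 in P-SSC 1, 2+5 and 4. The 3 groups did not overlap, with the graft between both steady-state groups, and no other member had all graft libraries above all BM-MSC libraries, a pattern that 10.3% of genes tested showed. The graft libraries themselves differed by up to 84.9-fold, graft BM-MSC 2 being the lowest. The graft mean was 115-fold that of BM-MSCs (log2 difference 5.74, SE 1.29) and the P-SSC mean was 19.4-fold that of the graft (-5.51, SE 1.29). The difference from BM-MSCs ran from 4.91 (without graft BM-MSC 1) to 7.14 (quantile normalization) over the alternatives, and that from P-SSCs from -6.34 (without graft BM-MSC 1) to -3.12 (with a replicate block). In percent of the P-SSC mean, the graft stood at 5.14% for Mfap5, 0.931% for Dpt and at most 0.0191% for the other 5 genes.

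**Figure D1:**
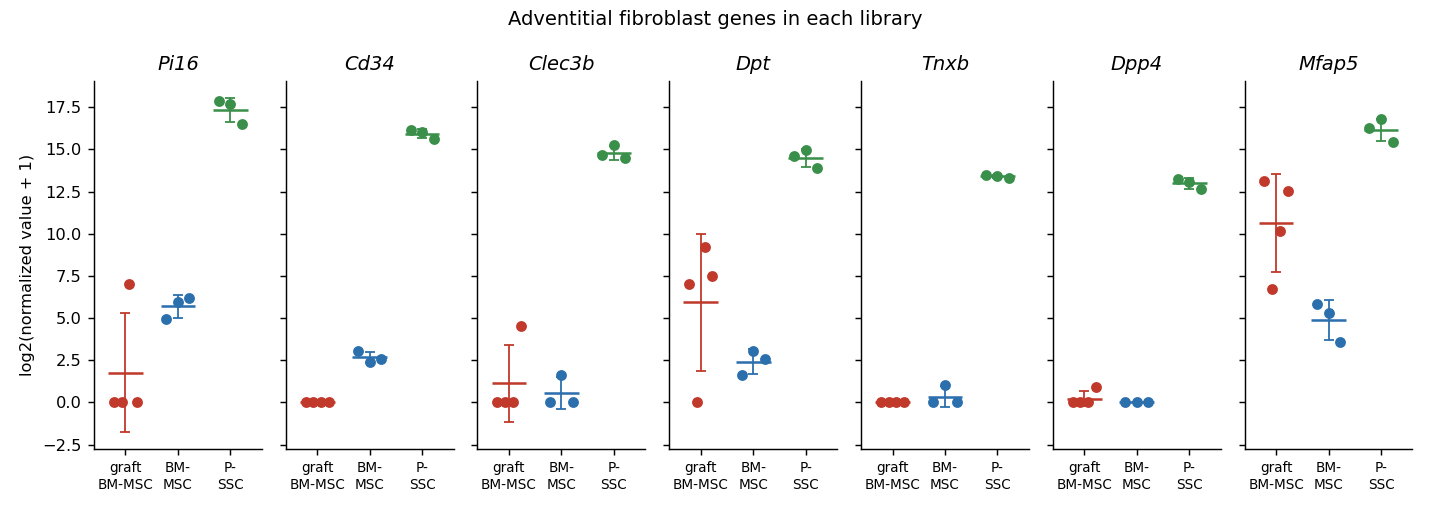
Level of each of the 7 genes in each library, as log2(normalized value + 1), by group. Points are libraries, horizontal lines are group means and bars are the SD (n = 4, 3 and 3). P-SSC libraries lie above all marrow libraries for every gene, and in Mfap5 the 4 graft libraries lie between the BM-MSC and the P-SSC libraries.

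To set different genes side by side, values were divided by the kilobases of annotated exons, joined over all transcripts of a gene. The length of the transcripts in use was not known. Pi16 has 6 annotated transcripts and Mfap5 has 7, against 1 each for Clec3b and Dpt, so the order between genes is approximate. On this scale the order in P-SSCs was Clec3b (29573 ± 8921 per kb), Pi16 (28244 ± 11752), Mfap5 (21782.0 ± 9502), Dpt (13935 ± 4658), Cd34 (8665 ± 1554), Dpp4 (1307 ± 274) and Tnxb (888 ± 52.4, SD, n = 3 for all). Neighbours from Clec3b down to Cd34 overlapped in their range over the libraries, whereas Cd34 and Dpp4, and Dpp4 and Tnxb, did not. P-SSC 2+5 and P-SSC 4 had this order, and P-SSC 1 had it with Pi16 before Clec3b. In the graft only Mfap5 (1120.0 ± 1152 per kb, SD, n = 4) and Dpt (130 ± 146) had a mean above 6 per kb, and in BM-MSCs the highest, Mfap5, had 9.77 ± 6.27 (SD, n = 3).

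Added up, reads of the 7 genes were 2.18, 2.06 and 1.30% of all reads in P-SSC 1, 2+5 and 4, against 5.07 to 5.57 ppm in BM-MSCs. Graft BM-MSC 1 to 4 had 637, 7.16, 120 and 421 ppm, so that graft BM-MSC 2 was near the BM-MSC libraries and the other 3 lay above them. Mfap5 made up 97.1, 100, 47.3 and 92.8% of the summed value per kb in graft BM-MSC 1 to 4, and Dpt 49.7% in graft BM-MSC 3. In P-SSCs, Mfap5 made up 18.2 to 23.5%, and Pi16 and Clec3b together gave the largest share. The number of the 7 genes listed at 0 was 5, 6, 4 and 3 in graft BM-MSC 1 to 4, 3, 1 and 3 in BM-MSC 1, 2+4 and 3, and 0 in each P-SSC library.

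**Figure D2:**
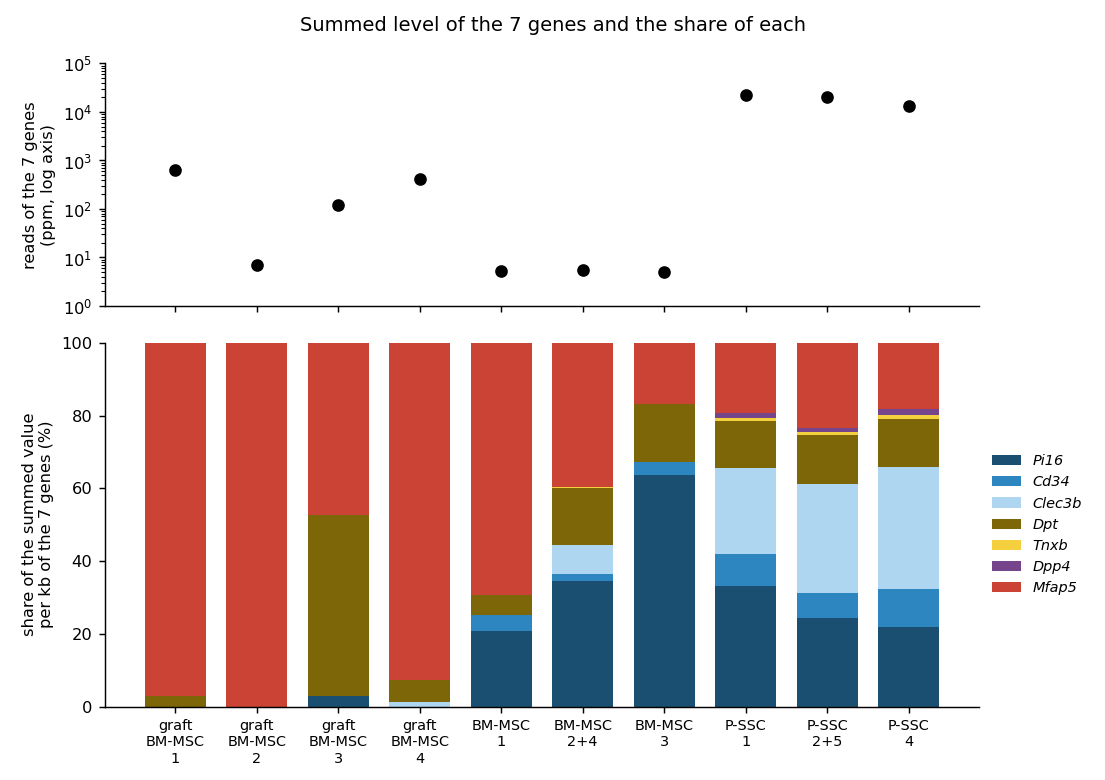
Upper panel, reads of the 7 genes together in each library, in ppm of all reads on a log axis. Lower panel, share of each gene in the summed value per kb of the 7 genes, in percent. P-SSC libraries lie between 13030 and 21839 ppm with all 7 genes present, while Mfap5 is 92.8% or more of the sum in 3 of the 4 graft libraries.

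In P-SSC 4, every one of the 7 genes was lower than in P-SSC 1 and 2+5, by a factor of 0.427 (Pi16), 0.467 (Mfap5), 0.548 (Dpt), 0.689 (Dpp4), 0.692 (Clec3b), 0.727 (Cd34) and 0.901 (Tnxb) of their mean. This is the P-SSC library with GC-rich genes high, as in the graft. The GC content of the 7 genes ran from 42.2% (Dpp4) to 60.7% (Tnxb). Within the batch with GC-rich genes high, P-SSC 4, the 1 P-SSC library there, exceeded the highest graft library 731-fold for Pi16, 1010-fold for Clec3b, 26.6-fold for Dpt, 7350-fold for Dpp4 and 4.96-fold for Mfap5, and Cd34 and Tnxb had no graft reads. Within the other batch, the lower of P-SSC 1 and 2+5 exceeded the highest BM-MSC library by 1402-fold (Mfap5) to 12340-fold (Clec3b) for the 6 genes with BM-MSC reads. No batch holds both graft BM-MSCs and BM-MSCs. With the batch as a covariate the difference between graft and P-SSCs was -7.99 for Dpt and -4.80 for Mfap5. The part of the batch in these levels was not tested.

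Over all genes tested, 1634 (12.0%) were called lower and 830 (6.08%) higher in graft BM-MSCs than in P-SSCs at an adjusted p under 0.05 (limma, Benjamini-Hochberg), 690 (5.06%) lower and 356 (2.61%) higher than in BM-MSCs, and 625 (4.58%) were called lower and 623 (4.57%) higher in P-SSCs than in BM-MSCs. After quantile normalization these were 1241 and 1247, 435 and 588, and 821 and 712 genes. The median log2 difference of all genes was -0.47, -0.53 and 0.00. All 7 members were called lower in the graft than in P-SSCs and higher in P-SSCs than in BM-MSCs, and 1, Mfap5, was called higher in the graft than in BM-MSCs, but since these contrasts chose the members nothing is read from those counts. Without overlap, 18.5% of all genes were lower in the graft than in P-SSCs and 15.1% higher in P-SSCs than in BM-MSCs, and the members had that pattern in 7 of 7 cases in both.

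**Figure D3:**
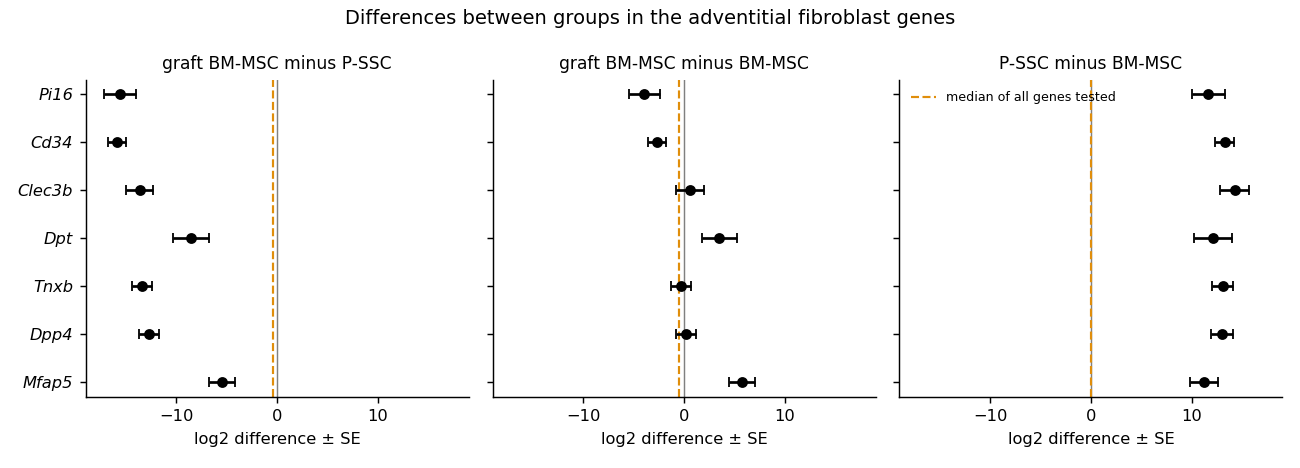
Log2 difference of each of the 7 genes, with its SE, in the 3 comparisons between groups. The dashed line is the median of all genes tested. All 7 genes lie left of 0 for graft BM-MSCs minus P-SSCs and right of 0 for P-SSCs minus BM-MSCs, and for graft BM-MSCs minus BM-MSCs they lie from -3.93 (Pi16) to 5.74 (Mfap5).

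Other genes linked to adventitial or related fibroblasts were examined as a list of 24 companion genes. The list was also drawn up with earlier results known and is therefore no independent evidence. All 24 were tested. In the graft, 23 were called lower than in P-SSCs (12.0% of all genes) and none higher, with a median log2 difference of -9.10 (-0.47 over all genes), and in P-SSCs 16 were called higher than in BM-MSCs (4.57% of all genes) and none lower (median 7.09, against 0.00). With the library batch as a covariate the first count was 15, of which 14 were kept from the main fit and Loxl1 was gained. Has1 was among the genes lost. Against BM-MSCs, 2 companion genes were called, both higher in the graft (2.61% of all genes), at a median of -1.13 over the list. Without graft BM-MSC 3 there were 5, with Cd55, Ly6c1 and Pcolce2 lower. Loxl1, a collagen and elastin cross-linking enzyme, was the companion gene not called against P-SSCs in the main fit (-1.06, adjusted p = 0.155). It was called in DESeq2 and with the batch as a covariate.

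The companion genes with the largest falls against P-SSCs were Igfbp6, Ly6c1, Sema3c and Has1. Igfbp6, a binding protein of insulin-like growth factors, stood at 95113 to 160683 in P-SSCs, at 9.86 to 143 in BM-MSCs and at 0 to 117 in the graft (graft minus P-SSC -13.73, SE 1.71, adjusted p = 0.000328). Ly6c1, a surface protein of the Ly6 family, had 24478 to 54121 in P-SSCs and, among graft libraries, reads in graft BM-MSC 3 alone (117), the library that also held the Pi16 reads (-13.51, adjusted p = 0.000311). Sema3c, a secreted guidance cue, was listed at 0 in all graft libraries and had 5625 to 11460.0 in P-SSCs (-13.07, adjusted p = 2.57e-05). Has1, a hyaluronan synthase, had reads only in graft BM-MSC 4 among the graft libraries (312), the library that also held the Clec3b reads (-13.03, adjusted p = 0.00174, not called with the batch as a covariate).

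Against BM-MSCs, the largest rises in P-SSCs were those of Col14a1, Sema3c, Has1 and Igfbp6. Col14a1, a collagen on the surface of collagen fibrils, stood at 17105 to 19793 in P-SSCs and at 0.986 to 3.16 in BM-MSCs (log2 difference 12.44, SE 1.21, adjusted p = 0.000127). Sema3c rose by 12.20 (adjusted p = 8.02e-05), Has1 by 11.66 (adjusted p = 0.0073) and Igfbp6 by 11.60 (adjusted p = 0.00192). All 24 companion genes, listed with earlier results known, were higher in every P-SSC library than in any BM-MSC library, a pattern that 15.1% of all genes tested showed.

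Ly6a and Cd248 were the companion genes that joined Mfap5 in being higher in the graft than in BM-MSCs. Ly6a (Sca-1), a surface protein of stem and progenitor cells, stood at 699, 247, 979.9 and 682 in graft BM-MSC 1 to 4, at 63.7 to 139 in BM-MSCs and at 43887 to 96853 in P-SSCs. It was higher in the graft than in BM-MSCs by 2.67 (SE 0.49, adjusted p = 0.011) and lower than in P-SSCs by -6.91 (SE 0.49, adjusted p = 1.68e-05). Cd248 (endosialin), a surface protein of pericytes and fibroblasts, stood at 1894, 832, 1709 and 2538 in graft BM-MSC 1 to 4 and at 95.7 to 108 in BM-MSCs (4.01, SE 0.78, adjusted p = 0.0139), and at 5045, 7085 and 71454 in P-SSC 1, 2+5 and 4. All graft libraries lay above all BM-MSC libraries for both, a pattern that 10.3% of genes tested showed. With the library batch as a covariate neither was called, which does not tell batch from group here. Cd248 also lost its call in edgeR and without BM-MSC 2+4 or BM-MSC 3. Fbn1 (fibrillin), the binding partner of Mfap5 named here after its values were seen, stood at 4674, 1092, 3309 and 6986 in graft BM-MSC 1 to 4 and at 4314 to 4581 in BM-MSCs (-0.43, adjusted p = 0.618).

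**Figure D4:**
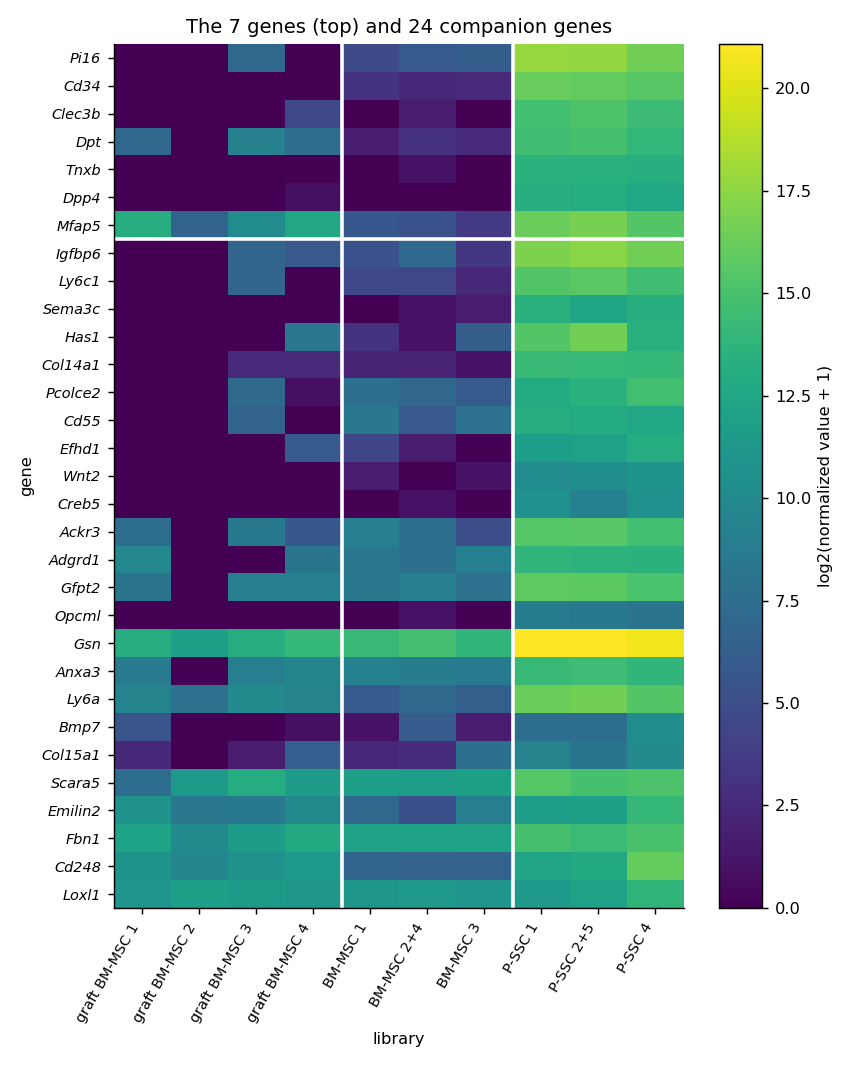
Level of the 7 genes (top rows) and the 24 companion genes (lower rows, ordered by the difference between graft BM-MSCs and P-SSCs) in the 10 libraries, as log2(normalized value + 1) in colour. White lines part the groups. P-SSC columns are bright in nearly all rows, and among graft columns graft BM-MSC 2 has the most rows at 0, with 17 of the 24 companion genes and 6 of the 7.

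Genes listed as relatives of the 7, by protein family or by the name microfibril-associated (Mfap2, Mfap3 and Mfap4), did not share their pattern as a group. Of 23 relatives, 20 were in the table and 19 were tested. In the graft, 4 were called lower and 4 higher than in P-SSCs (12.0% and 6.08% of all genes, median -1.07). Against BM-MSCs, 2 were lower and 0 higher in the graft (5.06% and 2.61% of all genes, median -0.72). In P-SSCs, 2 were higher and 2 lower than in BM-MSCs (4.57% and 4.58% of all genes, median -0.40). The listed gene that came closest to the members was Mfap4, taken into the list by its microfibril-associated name. It stood at 18717, 12029 and 10074 in P-SSC 1, 2+5 and 4, at 0 to 1.04 in BM-MSCs and at 0, 0, 39.3 and 1.73 in graft BM-MSC 1 to 4. Mfap4 was lower in the graft than in P-SSCs by -11.99 (SE 1.43, adjusted p = 0.000269) and higher in P-SSCs than in BM-MSCs by 13.01 (SE 1.52, adjusted p = 0.000368). The microfibril genes Mfap2 and Mfap3 were not called in any comparison, with 1851 to 3843 and 33.7 to 1985 in the graft.

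Among tenascins, Tnc ran against Tnxb. Tnc, the tenascin of bone and of wounds, stood at 31952, 18336, 37072 and 21039 in graft BM-MSC 1 to 4, at 103496 to 134521 in BM-MSCs and at 2437 to 7607 in P-SSCs. It was higher in the graft than in P-SSCs by 2.57 (SE 0.36, adjusted p = 0.000751), lower than in BM-MSCs by -2.17 (adjusted p = 0.00704), and lower in P-SSCs than in BM-MSCs by -4.74 (adjusted p = 4.66e-05). With the batch as a covariate the difference from BM-MSCs was not called. The graft libraries lay between both groups for Tnc, above P-SSCs and below BM-MSCs.

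Of the relatives of Dpp4, 1 of 5 tested was called. Fap, the fibroblast activation protein and nearest relative of Dpp4, stood at 8096, 3971, 3141 and 7323 in graft BM-MSC 1 to 4 and at 1373 to 1883 in P-SSCs, and was higher in the graft by 1.69 (SE 0.36, adjusted p = 0.00763), a call that was not made with the batch as a covariate. Its difference between graft BM-MSCs and BM-MSCs was 0.68 (adjusted p = 0.257). The intracellular peptidases Dpp7, Dpp8, Dpp9 and Prep were not called in any comparison. Dpp6 and Dpp10 were not analysed here.

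In the family of Pi16, Crispld1, Crispld2 and Glipr2 were lower in the graft than in P-SSCs, by -8.45 (adjusted p = 0.0052), -6.41 (adjusted p = 0.033) and -1.62 (adjusted p = 0.00231), and Glipr2 was higher in P-SSCs than in BM-MSCs by 1.98 (adjusted p = 0.00134). Glipr1 went the other way, with 92.7 to 394 in the graft, 98.2 to 109 in BM-MSCs and 0 in all P-SSCs (7.75, SE 1.02, adjusted p = 0.00048, graft minus P-SSC, and -6.68, adjusted p = 0.00247, P-SSC minus BM-MSC). For Clec3b, the relative Clec11a, an osteogenic growth factor of the marrow, was higher in the graft than in P-SSCs by 1.61 (adjusted p = 0.0429), and Clec3a was listed at 0 in all graft libraries against 63.3 to 75.9 in BM-MSCs (-6.15, adjusted p = 0.0264). The Clec3a call was lost with a mean of at least 100, quantile normalization, edgeR, DESeq2 or the batch as a covariate, and without graft BM-MSC 1 or any BM-MSC library, and that of Clec11a in edgeR, in DESeq2, with a pseudocount of 0.1 and without any graft library, P-SSC 1 or P-SSC 2+5. The Crispld2 call was lost with a pseudocount of 0.1 and without any P-SSC library. For Cd34, Podxl2 had 65.8 to 1685 in the graft and 12.7 to 36.5 in BM-MSCs (4.90, adjusted p = 0.155), and Podxl, with at most 35.9 in any library, was too low to be tested. With the library batch as a covariate, 3 of the 8 calls against P-SSCs were made (Mfap4, Glipr1 and Tnc).

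Of 14 general fibroblast genes, 9 were called lower and 1 higher in the graft than in P-SSCs (12.0% and 6.08% of all genes, median -2.01). Against BM-MSCs, 5 were lower and 0 higher in the graft (5.06% and 2.61% of all genes, median -0.98). In P-SSCs, 4 were higher and 1 lower than in BM-MSCs (4.57% and 4.58% of all genes, median 1.03). Against P-SSCs the largest falls were those of Thy1 (-6.24, adjusted p = 0.0121), Col3a1 (-5.66, adjusted p = 0.000117), Dcn (-4.68, adjusted p = 3.21e-06) and Col1a1 (-4.17, adjusted p = 0.000202), the last 3 matrix genes of collagen fibrils. Dcn, decorin, to which dermatopontin binds, stood at 10582 to 22193 in the graft, 29328 to 42853 in BM-MSCs and 330632 to 481665 in P-SSCs, so that unlike Dpt it was present in every library. The gene called higher was the receptor Pdgfrb (0.90, adjusted p = 0.0258), which was lower in P-SSCs than in BM-MSCs (-1.90, adjusted p = 0.000754). Its call against P-SSCs was lost with the batch as a covariate and without graft BM-MSC 1, 3 or 4, P-SSC 2+5 or P-SSC 4, and that of Thy1 in edgeR, with the batch as a covariate and without P-SSC 1 or 2+5.

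Against BM-MSCs, Col1a1 (-5.48, adjusted p = 0.000799), Col1a2 (-3.38, adjusted p = 0.00123), Col6a1 (-1.21, adjusted p = 0.0214), Dcn (-1.03, adjusted p = 0.0422) and Pdgfrb (10490 to 19875 against 27988 to 34403, adjusted p = 0.0323) were lower in the graft. With the library batch as a covariate none of these was called, and edgeR called 2, Col1a1 and Col1a2, as did the fits without BM-MSC 2+4 or BM-MSC 3. In P-SSCs, Col3a1 (4.70, adjusted p = 0.000677), Dcn (3.65, adjusted p = 3.13e-05), Vim (2.04, adjusted p = 0.000342) and Col5a1 (1.13, adjusted p = 0.0284) were higher than in BM-MSCs. The Col5a1 call was lost with quantile normalization, edgeR or the batch as a covariate, and without any BM-MSC library, P-SSC 2+5 or P-SSC 4.

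**Figure D5:**
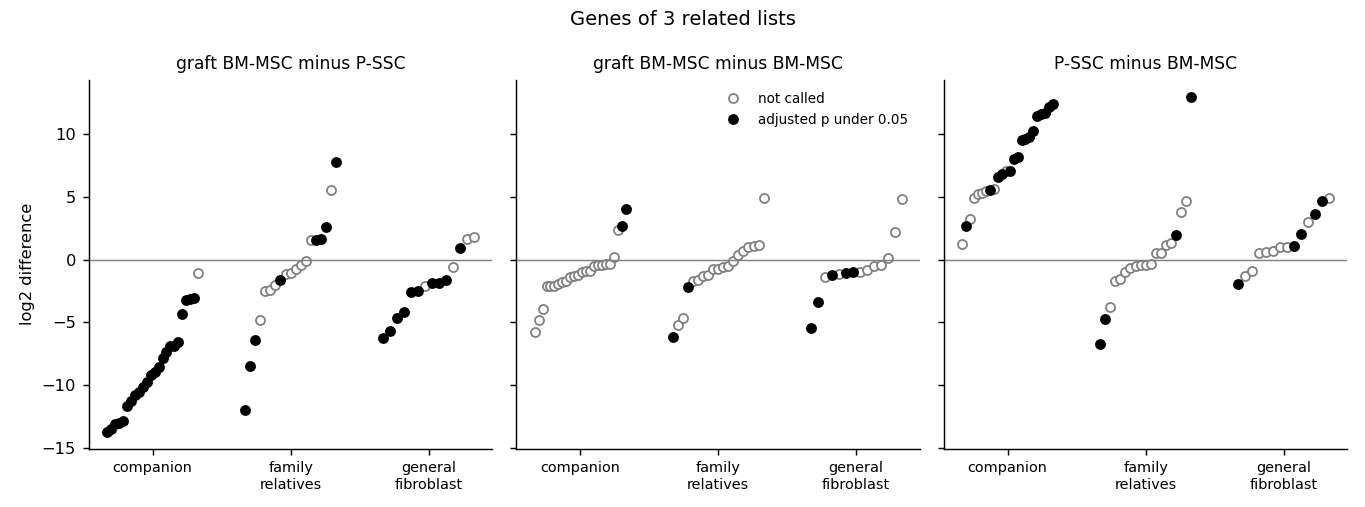
Log2 differences of the tested companion genes (24), family relatives (19) and general fibroblast genes (14) in the 3 comparisons, ordered within each list. Filled points have an adjusted p under 0.05. Nearly all companion genes are filled and below 0 on the left, and 2 are filled and above 0 in the middle panel.

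Across the 10 libraries the 7 genes followed each other to different degrees. Pearson's r of log2(value + 1) between pairs ran from 0.593 (Pi16 and Mfap5) to 0.997 (Tnxb and Dpp4), and pairs with Mfap5 had from 0.593 to 0.923. These points share the 3 groups and the batch, so r mostly describes the gap between P-SSCs and marrow. The 10 genes most like the mean of the 7, of 9539 with a mean of at least 100, were Necab3 (r = 0.991), Col14a1, Plau, Zfp385a, Dkk2, 4930404H11Rik, Gpr1, Kera, Cldn3 and Xpnpep2 (r = 0.988 for the last). In P-SSCs, Col14a1 had 17105 to 19793, Kera (keratocan, a proteoglycan of dense connective tissue) 2019 to 2813, Dkk2 (a secreted Wnt antagonist) 839 to 2420.2 and Plau (urokinase, which activates plasminogen) 272 to 791. In marrow libraries these 4 did not exceed 5.18, whereas Zfp385a had 49.8 to 109.8.

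The sorted populations were checked by markers. The sorting genes Itgav (CD51) and Cd200 were present in all libraries, Ptprc (CD45) was at 0 in P-SSCs, at 16.7 to 78.0 in BM-MSCs and at 0 to 196 in graft BM-MSCs, and Pecam1 (CD31) was not analysed here. The summed marrow stroma list, led by Cxcl12, stood at 667905 to 819818 in graft BM-MSCs, 830909 to 1131721 in BM-MSCs and 4580 to 8883 in P-SSCs, the opposite of the 7 genes. Postn, whose promoter drives the label, stood at 16558 to 24829 in P-SSCs, 3757 to 5041 in BM-MSCs and, in the graft, at 235 in graft BM-MSC 4 and 0 in the other 3. Of the other periosteum genes listed, Fmod (52492 to 82273 in P-SSCs, at most 3958 in marrow libraries) and Thbs4 (9120 to 38668, at most 9.40) were also highest in P-SSCs. Ctsk and Gli1 did not separate the groups. Ctsk had 5001 to 8116 in P-SSCs, 3375 to 5411 in BM-MSCs and 5010 to 9680 in the graft. Gli1 had 14.0 to 45.6, 0 to 88.8 and 0 to 78.4 in the same order.

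Some markers of other cell types were higher in P-SSCs than in marrow, like the 7 genes, and others were not. The sum of 5 muscle genes was 385 to 1285 in P-SSCs, 0 to 6.90 in BM-MSCs and 0 in the graft, with all 5 at 0 there. The sum of 3 tendon genes, mostly Tnmd, was 4135 to 6867 in P-SSCs, 89.8 to 147 in BM-MSCs and 0 to 347 in the graft. Mkx overlapped, with 127.8 to 168 in P-SSCs, 69.0 to 128.5 in BM-MSCs and 0 to 276 in the graft. Scx had 798 in P-SSC 4, but 18.7 and 3.82 in P-SSC 1 and 2+5, within the 1.04 to 20.7 of BM-MSCs. The sum of 5 endothelial genes was 3432 to 7106 in P-SSCs, 134 to 330.1 in BM-MSCs and 0 to 275 in the graft, nearly all of it Tek in P-SSCs (6869, 4820.2 and 3254), with Cdh5 at 2.08 to 58.6 and Emcn at 0. Emcn had 24.3 to 81.5 in BM-MSCs, so it was lower in P-SSCs. Egfl7 (0 to 6.785 in P-SSCs, 0 to 82.85 in BM-MSCs) and Esam (157 to 334, against 0 to 306) overlapped between these groups. The sum of 6 mural genes was 10632 to 28901 in P-SSCs, 2101 to 9238 in BM-MSCs and 1577 to 4380 in the graft. Acta2 led it in P-SSCs, while Rgs5 (86.2 to 128 in P-SSCs, 266 to 1437 in BM-MSCs) and Notch3 (107 to 284, against 1098 to 1180) were lower in P-SSCs than in BM-MSCs. The sum of 4 Schwann genes overlapped, with 565 to 3814 in P-SSCs, 1120 to 1953 in BM-MSCs and 551 to 1562 in the graft, and S100b was lower in P-SSCs (242 to 389) than in BM-MSCs (1018 to 1953). The sum of 8 hematopoietic genes went the other way, with 464 to 2256, 12472 to 53627 and 5975 to 85609, the highest being graft BM-MSC 3, the graft library with Pi16 reads. The part of such cells in the levels of the 7 genes was not tested.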

How the data were processed

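RNA of sorted CD51+CD200+ cells was sequenced from 10 libraries (poly-A selected mRNA). Per the study's methods the authors aligned reads to GRCm38 with STAR and used DESeq2 to find genes that differed, and the submitters' notes name GRCm39. The deposited values are a signal, gene reads divided by a library size factor. Whole reads were recovered for 100% of values (tolerance 0.01), giving 15415421 to 25223295 reads per library. Each replicate came from distinct mice.

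Values were analysed as log2(value + 1) with limma 3.58.1 (R 4.3.3), on 13644 of 15078 genes with a mean of at least 10, with 1 mean per group, a mean-variance trend and Benjamini-Hochberg adjustment over all genes at 0.05 (two-sided). The script was tested on simulated data. Alternatives were pseudocounts of 0.1 and 5, no filter, a mean of at least 100, quantile normalization, edgeR 4.0.16 and DESeq2 1.42.0 on recovered reads, a replicate block, the library batch as a covariate and leaving out each library. A group at 0 was set to 3 reads per library for a lower bound of a fold, and ratios on 1 to 3 reads have exact Poisson 95% intervals. These bounds and intervals cover counting error only, and not genes whose RNA was missed when a library was made.

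The members and lists were chosen with earlier results of these data known. Besides the 7 genes, the text names up to 4 genes called in each direction with the largest differences in each list, relatives of each member, the 10 genes most like the members' mean and markers. Also named are the gene antisense to Cd34 and companion genes that were not called, changed with a setting or had a graft library standing apart. The remaining genes are said to be chosen after their values were seen. Companion, relative and general genes were tested as rows of the fit over all genes. Genes were matched to GENCODE M21 (15052 of 15078).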

Additional observations from a re-analysis of the deposited data

Results flagged for a closer look

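In 10 of 25 genes with reads in the graft (members and companion genes), 1 graft library stood apart from the other 3 by more than Dixon's 95% critical ratio for 4 samples. The critical ratio is set so that chance flags about 1 in 20 groups of normally distributed values. The ratios here were taken on normalized values without a log, so that rate need not hold for any of these genes. It also does not apply to the 7 genes below whose other 3 libraries were at 0, since the ratio is then 1 whatever the value. The other 6 genes were at 0 in all 4 graft libraries and had no gap to test. Graft BM-MSC 3 stood apart for Pi16 (129.9), Ly6c1 (117) and Cd55 (103.7), each listed at 0 in the other 3 graft libraries, and for Pcolce2 (157, next 0.863). Graft BM-MSC 4 stood apart for Clec3b (22.4), Dpp4 (0.863, 1 read), Has1 (312) and Efhd1 (60.4), each listed at 0 in the other 3, and for Col15a1 (76.8, next 4.52). Graft BM-MSC 1 stood apart for Bmp7 (45.8, next 0.863), and graft BM-MSC 2 for none. In all 10 the library that stood apart was the highest.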

How the results depend on the processing

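Every member stayed lower in the graft than in P-SSCs and higher in P-SSCs than in BM-MSCs under the alternatives run. Between graft and BM-MSCs, where neither was called, Clec3b turned to -0.55 without graft BM-MSC 4 and Tnxb to 0.94 with quantile normalization and 0.02 with a replicate block. Over all members and comparisons, 277 values moved by less than the spread between replicates and 52 by more. Depth limits what can be said of graft BM-MSCs against BM-MSCs for Cd34, Clec3b, Tnxb and Dpp4, with 0 to 26 reads per library. The causes of the changes below were not tested.

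Genes called numbered 2464 (graft against P-SSC), 1046 (graft against BM-MSC) and 1248 (P-SSC against BM-MSC). These were 1531, 316 and 619 with edgeR, and 1081 and 40 for the first 2 with the library batch as a covariate. DESeq2 called 1944 between graft and BM-MSCs. Leaving out 1 library gave 1583 (without P-SSC 1) to 3005, 476 (without BM-MSC 2+4, with 477 without BM-MSC 3 and 540 without BM-MSC 1) to 1043, and 917 to 1203.

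Member calls are listed to show the effect of settings and test nothing, since these contrasts chose the members. Against BM-MSCs, 1 member was called in the graft (Mfap5), 2 with a pseudocount of 0.1 (with Cd34), 2 with quantile normalization (with Dpt), 2 with edgeR (with Cd34), 3 with DESeq2 (with Cd34 and Dpt) and 0 with the batch covariate. Leaving out 1 library gave 0 to 2, with 0 without graft BM-MSC 1, graft BM-MSC 4 or any BM-MSC library, and 2 without graft BM-MSC 2 (with Dpt) or graft BM-MSC 3 (with Pi16). Against P-SSCs, 7 members became 5 with the batch covariate (without Dpt and Mfap5), and 6 without P-SSC 1 or P-SSC 2+5 (without Mfap5).

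Of companion genes, 23 called against P-SSCs became 15 with the batch covariate, and 2 against BM-MSCs became 1 with edgeR, 0 with the batch covariate and 1 to 5 without 1 library. Of relatives, 8 became 3 with the batch covariate against P-SSCs, and 2 against BM-MSCs became 1 with a mean of at least 100, 1 with edgeR, 4 with DESeq2, 0 with the batch covariate and 1 to 2 without 1 library. Of general fibroblast genes, 5 against BM-MSCs became 3 with quantile normalization, 2 with edgeR, 0 with the batch covariate and 2 to 6 without 1 library.

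Deviations of same-numbered libraries from their group means correlated at -0.0191 to 0.0295. The labels do not say whether same-numbered libraries share a mouse. With so few libraries per group, these correlations cannot decide it. With a replicate block, 269, 3 and 54 genes were called in the 3 comparisons, 6, 1 and 2 members, 9, 0 and 3 companion genes, 1, 0 and 1 relatives, and 4, 0 and 0 general genes.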

Other observations

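Among the genes whose levels over the 10 libraries were most like those of Mfap5, picked after their values were seen and not tested, several had every graft library above every BM-MSC library and below every P-SSC library. Nfix, a transcription factor, stood at 2639, 1043, 1770.4 and 2742 in graft BM-MSC 1 to 4, at 187, 383 and 227 in BM-MSC 1, 2+4 and 3, and at 4497, 3046 and 4349 in P-SSC 1, 2+5 and 4 (r = 0.930 with Mfap5). A4galt, a glycosyltransferase, stood at 795, 774, 1388 and 1277 in the graft, 425, 377 and 322 in BM-MSCs and 2877, 2587 and 3197 in P-SSCs (r = 0.931). Fndc1, a gene with fibronectin domains, stood at 2193, 357, 178 and 1583 in the graft, 19.8, 70.7 and 3.94 in BM-MSCs and 6892, 4899 and 45627 in P-SSCs (r = 0.926).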
